A study of Mus musculus with 18 samples.

Results

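Macrophages of the knee synovium were sorted as LYVE1+CX3CR1+ cells and as MHCII+CD11c- cells, and both subsets were sequenced 8 h after an intravenous injection of immune complexes (IC). The comparison of these 2 subsets in the inflamed joint rested on 6 of the 18 libraries of the series, 3 of each subset, chosen by their sample labels. The other libraries were the same 2 subsets from untreated mice, used here for reference, and MHCII+CD11c+ cells with and without IC. All mice were adult wild-type C57BL/6J animals, and the methods give both sexes and 8 to 20 weeks of age for the study in general. The IC were fluorescent ovalbumin bound by rabbit polyclonal antibody to ovalbumin, and the untreated mice received no IC. The untreated libraries are described as pools of mice, and the protocol drawing shows several legs combined for a sample, so the 3 libraries of a group may give a spread between pools and not between single animals. LYVE1+CX3CR1+ cells were gated as MHCII- and Ly6C- cells with LYVE1 and CX3CR1 on the surface, so differences in class II, Lyve1, Cx3cr1 and Ly6c transcripts follow from the gates.

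Synovial macrophages occupy at least 2 niches. Those that line the joint cavity carry scavenger and complement receptors, and they are known for a barrier-like layer that also clears debris. Those in the tissue below the lining carry MHC class II, which presents peptides to CD4 T cells, and they are replenished in part by monocytes. Immune complexes bind Fc receptors for IgG, of which some activate the macrophage and one, FcγRIIB, inhibits it.

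The LYVE1+CX3CR1+ IC libraries held 1796782 to 2047260 counts. The MHCII+CD11c- IC libraries were shallower, with 381217, 245903 and 973951 counts in replicates 1, 2 and 3. Levels below are CPM, the count of a gene divided by its library's TMM-scaled total and brought to a common total for all libraries, and 3 counts, taken as the detection floor, came to between 1.44 and 1.69 CPM in the LYVE1+CX3CR1+ IC libraries and to between 3.004 and 11.3 CPM in the MHCII+CD11c- IC libraries. A fold change is the level in LYVE1+CX3CR1+ over that in MHCII+CD11c- cells on the log2 scale, with its standard error (SE), and a gene was called at an edgeR adjusted p under 0.05.

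The 3 marker genes separated the subsets after IC. Vsig4, a complement receptor of resident macrophages, stood at 2107, 1929 and 1744 CPM in LYVE1+CX3CR1+ cells and at 413, 339 and 585 CPM in MHCII+CD11c- cells. The groups did not overlap, and Vsig4 was higher by 2.09 ± 0.22 (SE; edgeR adjusted p = 2.49e-07). Lyve1, a hyaluronan receptor, stood at 3219, 3172 and 3555 CPM in the LYVE1+CX3CR1+ IC libraries and at 1841, 516 and 2290 CPM in the MHCII+CD11c- IC libraries. The second MHCII+CD11c- IC library was well below the other two, and Lyve1 was not confined to the subset sorted for it. Without both shallow MHCII+CD11c- IC libraries Lyve1 was not called. Its difference of 1.08 ± 0.28 (edgeR adjusted p = 0.0121) was smaller in size than that of H2-Ab1, the class II beta chain, which was lower at a log2 fold change of −6.38 ± 0.21 (edgeR adjusted p = 9.13e-18).

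H2-Ab1 stood at 22, 44.3 and 37.5 CPM in LYVE1+CX3CR1+ cells and at 3088, 2670 and 2926 CPM in MHCII+CD11c- cells. Cx3cr1, the fractalkine receptor, was higher at 778, 729 and 696 CPM against 366, 245 and 378 CPM (log2 fold change 1.13 ± 0.19, edgeR adjusted p = 0.000233). Itgax, which encodes CD11c, was measured at 70.6, 33.9 and 31 CPM in the MHCII+CD11c- IC libraries and at 1.69, 0 and 8.16 CPM in LYVE1+CX3CR1+ cells (−3.61 ± 0.60, edgeR adjusted p = 0.00017). Some Itgax message was thus present in the MHCII+CD11c- IC libraries, above the 2.33 to 13.3 CPM of the same gate without IC, and its source was not tested.

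**Figure D1:**
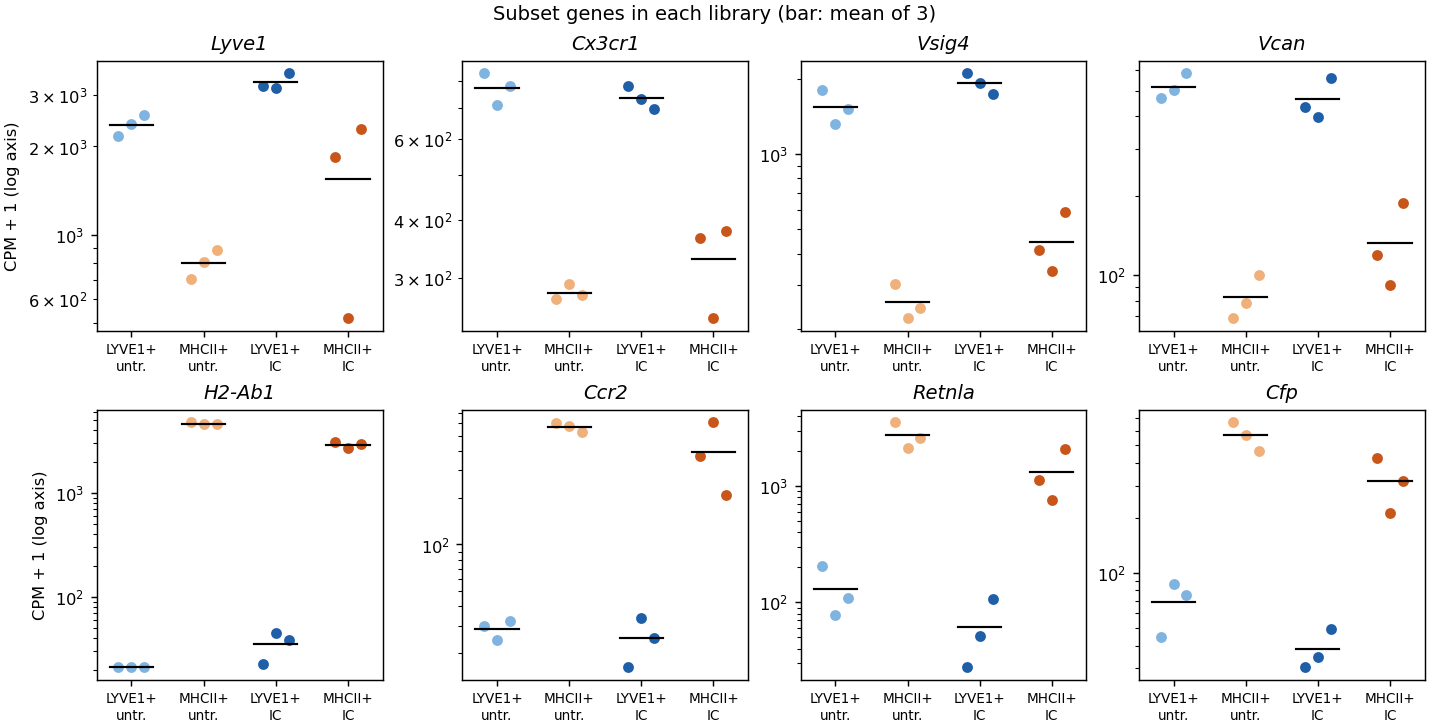
Level of 8 genes in each library as CPM + 1 on a log axis, for LYVE1+CX3CR1+ (LYVE1+) and MHCII+CD11c- (MHCII+) cells, untreated (untr.) and after IC; each point is 1 library and the bar is the mean of 3. Lyve1, Cx3cr1, Vsig4 and Vcan lie higher in LYVE1+ cells and H2-Ab1, Ccr2, Retnla and Cfp lower, with and without IC, and the 2 IC groups do not overlap for any of the 8 genes.

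The MHCII+CD11c- IC libraries also carried transcripts of other cells. All 11 tested neutrophil markers were lower in LYVE1+CX3CR1+ cells, against 6.45% of all genes tested. Markers near 0 in LYVE1+CX3CR1+ libraries passed the filter on low counts only through other groups, so their direction was largely fixed beforehand. The 16 neutrophil markers in the files summed to between 1713 and 5123 CPM in the MHCII+CD11c- IC libraries and to between 19.2 and 201 CPM in LYVE1+CX3CR1+ IC libraries. S100a9, a neutrophil alarmin, is among them. Without IC the same sum was 985 to 2284 CPM against 18.9 to 24.8 CPM. Of the defining markers, Ctsg was at 0 in all 3 MHCII+CD11c- IC libraries.

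All 8 tested B cell markers were lower as well, and the same limit of the filter holds for them and for the mast cell markers below. The 9 B cell markers in the files summed to 254 to 410 CPM in MHCII+CD11c- IC and to between 0 and 4.74 CPM in LYVE1+CX3CR1+ IC libraries. Ms4a1 (CD20) stood at 75.8, 151 and 54.1 CPM against 0 in every LYVE1+CX3CR1+ IC library, which is at least 59.5-fold lower when the mean floor of 3 counts per library is used. Mast cell markers were lower for 6 of 7 tested and summed to between 137 and 576 CPM against 0 to 33.6 CPM. Without LYVE1+CX3CR1+ IC replicate 1 or without replicate 2 2 mast cell markers were called. Of 11 dendritic cell markers tested, 5 were lower, namely Ccr7, Kmo, Dpp4, Batf3 and Cd24a, and 6 were not called. By sign 7 of the 11 were lower and 4 higher. Xcr1, Clec9a, Cd207, Cd8a, Itgae and Fscn1 were at 0 in all 3 MHCII+CD11c- IC libraries. Dpp4, at 18.3, 0 and 11 CPM in MHCII+CD11c- IC libraries, overlapped with the 0 of the LYVE1+CX3CR1+ IC libraries.

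T and NK cell markers summed to 4.51 to 5.76 CPM against 7.53 to 11 CPM, and Cd3d, Cd3e and Cd3g had no count in any of the 6 libraries. None of 7 tested fibroblast markers was called by edgeR, with 2 at an unadjusted p under 0.05 and 0 called by DESeq2. Their list summed to 104 to 221 CPM against 70.1 to 241 CPM. None of 5 erythroid and 4 muscle markers was called by edgeR, with 0 and 1 at an unadjusted p under 0.05 and 0 and 1 called by DESeq2, and none of 10 cartilage and bone markers passed the filter on low counts. Of 5 endothelial markers, Pecam1 was lower, a call lost without LYVE1+CX3CR1+ IC replicate 1 or 2 or MHCII+CD11c- IC replicate 3 (adjusted p up to 0.618). Of 7 Schwann cell markers, Pmp22 and S100b were higher, by 1.06 and 1.60. S100b was lost without any 1 of the libraries but MHCII+CD11c- IC replicate 3 (edgeR adjusted p up to 0.135). Without both shallow MHCII+CD11c- IC libraries Pmp22 was higher by 0.74 and S100b by 0.78. In pooled RNA of this kind, fewer cells of a type and less RNA per cell cannot be told apart.

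**Figure D2:**
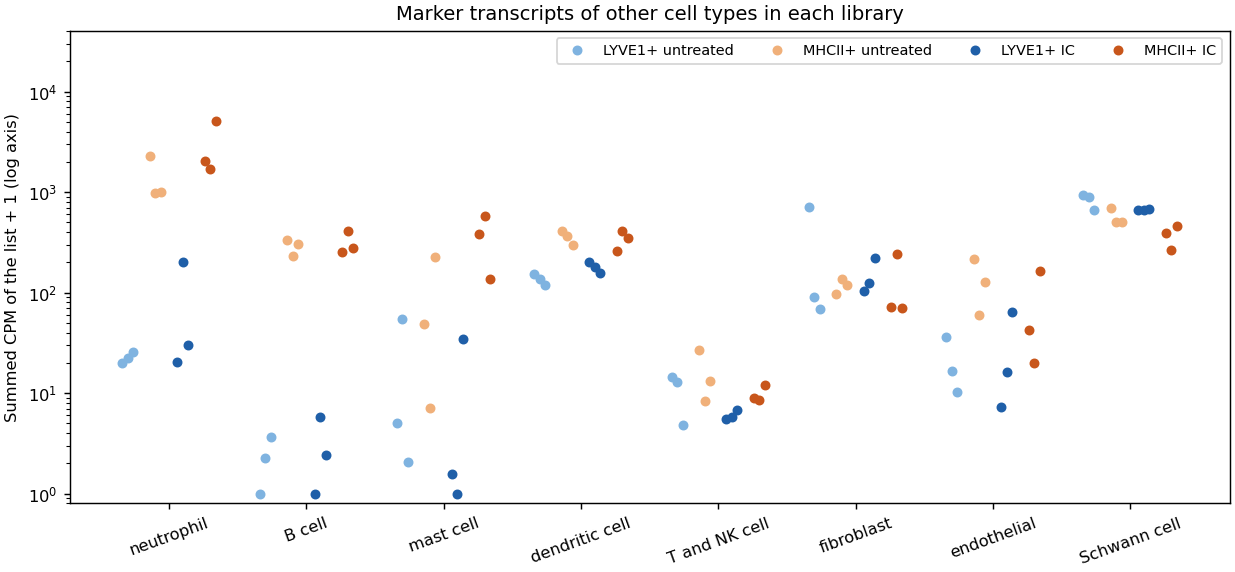
Summed CPM + 1 of the marker lists of other cell types in each library, on a log axis; each point is 1 library, in the order LYVE1+ untreated, MHCII+ untreated, LYVE1+ IC and MHCII+ IC. Neutrophil and B cell sums are higher in all MHCII+CD11c- libraries than in any LYVE1+CX3CR1+ library of the same treatment, and fibroblast sums overlap.

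After IC, 1031 of 10550 genes tested differed between the subsets, or 9.77% of them. Of these, 350 were higher and 681 lower in LYVE1+CX3CR1+ cells (3.32% and 6.45% of the genes tested). These shares are the reference for the counts of list members given below. The median log2 fold change over all genes tested was −0.01. Those higher rose by a median of 1.01 and those lower were at a median of −2.15, and a difference of at least 2 on the log2 scale was reached by 27 of the first and 355 of the second. The mean floor was 7.38 CPM in MHCII+CD11c- IC and 1.57 CPM in LYVE1+CX3CR1+ IC libraries, and its part in this split was not tested. With at least 10 counts required in every library, 355 genes were higher and 309 lower. For 145 of the genes that were lower, every LYVE1+CX3CR1+ IC library lay at or under 3 counts, so that their fitted fold changes depend on the fit and are not limits. The 2 groups of 3 libraries did not overlap for 922 of the 1031 genes, and for 25.1% of all genes tested. Fewer genes were called when LYVE1+CX3CR1+ IC replicate 1 or 2 was left out (672 and 633), or when both shallow MHCII+CD11c- IC libraries were left out together (589, with 126 higher and 463 lower, a check chosen after the totals were seen).

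Most subset differences seen without treatment pointed the same way after IC. Without treatment 1207 genes were called (11.4% of those tested), 456 higher (4.32%) and 751 lower (7.12%). Of them 614 were called in the same direction after IC (5.82% of the genes tested), 182 higher and 432 lower. This was 50.9% of the untreated list and 59.6% of the IC list. No gene was called in opposite directions by the edgeR test. The overlap was larger among lower genes, of which 63.4% of the IC list were also called without treatment, than among higher genes, at 52.0%. Of the 1207 genes, 1158 had the same sign after IC, compared with 66.5% of all genes tested. The 2 comparisons share no library.

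Calls in 1 comparison only were 417 after IC and 593 without treatment. Of the 417 genes, 378 had the same sign without treatment, and 164 of these 378 reached an unadjusted edgeR p under 0.05 there. The test of the difference between the 2 subset differences (the interaction) called 0 genes with edgeR, and 688 genes reached an unadjusted p under 0.05. DESeq2 called 12 genes and edgeR without a filter on low counts called 20. The genes called after IC only are therefore not shown to differ from their untreated comparison.

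**Figure D3:**
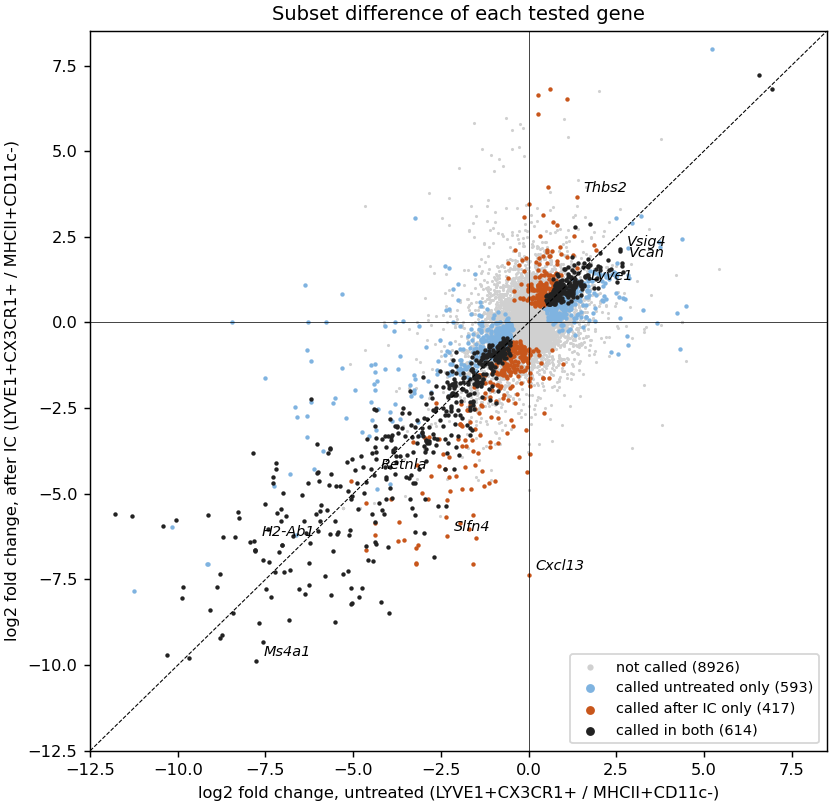
Log2 fold change of LYVE1+CX3CR1+ over MHCII+CD11c- cells for each of the 10550 genes tested, untreated (x axis) against after IC (y axis); colours mark genes called in both (614), after IC only (417) or untreated only (593), and the dashed line marks equal values. Genes called in both lie in the lower left and upper right, and the lower genes reach far larger fitted sizes than the higher ones. Fitted sizes of genes at the floor in a subset depend on the fit.

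The class II genes differed widely between the subsets, as the gate requires. Of 11 listed genes 10 were tested, and 9 were lower in LYVE1+CX3CR1+ cells after IC as without treatment, with a median of −6.44 (−5.54 with genes at the floor set to their bound). H2-Aa, the class II alpha chain, stood at 6.2, 6.85 and 5.28 CPM against 1875, 1386 and 1665 CPM. H2-Eb1 was at the floor in every LYVE1+CX3CR1+ IC library and at 1577, 934 and 1409 CPM in MHCII+CD11c- cells, at least 832-fold lower. Ciita, the master regulator of class II genes, was lower as well (log2 fold change −6.49 ± 0.40, edgeR adjusted p = 2.41e-11).

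H2-DMa and H2-DMb1, which load peptide onto class II, were lower at log2 fold changes of −3.78 ± 0.27 and −3.30 ± 0.22. H2-Ob, a subunit of the inhibitor of that loading, stood at 9.59, 6.85 and 8.64 CPM against 26.1, 18.8 and 21 CPM and was not called (edgeR adjusted p = 0.0622). Cd74, the invariant chain, stood at 6.2, 12.7 and 69.6 CPM against 6772, 1800 and 6107 CPM, and the microRNA gene Mir5107 lies inside Cd74, so reads of the pair cannot be told apart.

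Class II promoters share a short box, bound by the factor NF-Y, that is shown here because the genes move together. The motif TGATTGG was searched on both strands (CCAATCA on the other) in the 250 bases before each start site in the RefSeq promoter table of GRCm38.p6. It was present for 7 of the 8 class II genes that had an entry and were searched, and for 11.3% of the 8012 tested genes with an entry. H2-Ab1 and Ciita had no entry. The 4 stretches below are the 100 bases before the start, 5′ to 3′ on the gene's strand, with the motif in capitals. The regions are chr17:34287824-34287923 on the minus strand for H2-Aa, and on the plus strand chr17:34305767-34305866 for H2-Eb1, chr17:34153091-34153190 for H2-DMb1 and chr17:34092279-34092378 for H2-Oa.
H2-Aa: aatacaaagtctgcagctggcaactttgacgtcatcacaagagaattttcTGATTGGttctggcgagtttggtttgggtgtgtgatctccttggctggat
H2-Eb1: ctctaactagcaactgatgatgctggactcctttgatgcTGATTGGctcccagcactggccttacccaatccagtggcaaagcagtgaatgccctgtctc
H2-DMb1: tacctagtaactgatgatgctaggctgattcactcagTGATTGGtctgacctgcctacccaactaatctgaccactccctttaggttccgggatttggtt
H2-Oa: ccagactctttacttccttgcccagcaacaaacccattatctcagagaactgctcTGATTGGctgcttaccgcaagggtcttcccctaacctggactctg
The motif began 50, 61, 63 and 45 bases before the start in this order. H2-Ob, which was not called, also held it and H2-DMa, which was lower, did not.

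H2-Ab1 and H2-Aa had the 2 smallest interaction p-values of all genes. In MHCII+CD11c- cells H2-Ab1 stood at 4745, 4585 and 4548 CPM without treatment, above the 2670 to 3088 CPM after IC, and in LYVE1+CX3CR1+ cells at 20.1 to 20.5 CPM, below the 22 to 44.3 CPM after IC. The subset difference was smaller by 1.45 on the log2 scale for H2-Ab1 and by 1.82 for H2-Aa after IC, and neither passed the threshold (edgeR adjusted p = 0.107 for both). Of 24 MHC class I genes, 5 were lower and none higher (20.8% called, against 9.77% of all genes tested), with a median of −0.20. Among the lower ones were the class I regulator Nlrc5 (−1.83 ± 0.35, edgeR adjusted p = 0.000769) and H2-Q7 (−1.66 ± 0.33), a member of a family with near-identical copies. The count was 2 without LYVE1+CX3CR1+ IC replicate 3 and 3 without LYVE1+CX3CR1+ IC replicate 2 or MHCII+CD11c- IC replicate 1. Of 15 costimulation genes, Vsig4, Havcr2 and Cd276 were higher and Slamf7 lower (26.7% called). Cd276 was lost without LYVE1+CX3CR1+ IC replicate 2 or MHCII+CD11c- IC replicate 1 or 2 (adjusted p up to 0.0871), and Slamf7 without MHCII+CD11c- IC replicate 1 (0.0767).

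Genes of lining macrophages were higher in LYVE1+CX3CR1+ cells. Of 20 tested, 13 were higher and none lower after IC, the same 13 as without treatment, with a median of 1.03 after IC and 1.33 without. The list was drawn with earlier results of these data known and holds genes of the sort, so its direction is a description. Vcan, which encodes the matrix proteoglycan versican, stood at 435, 396 and 560 CPM against 118, 90.4 and 186 CPM (1.74 ± 0.22, edgeR adjusted p = 3.7e-06). Timp2, an inhibitor of metalloproteinases, was higher at 3479, 3473 and 3743 CPM against 1694, 1028 and 2207 CPM.

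Sparc, a matricellular protein, stood at 788, 1150 and 1226 CPM in LYVE1+CX3CR1+ and at 450, 320 and 762 CPM in MHCII+CD11c- cells. The groups were separated by a narrow gap. Its log2 fold change was 1.01 ± 0.30 (edgeR adjusted p = 0.0322) and it was not called when LYVE1+CX3CR1+ IC replicate 2 or 3, or MHCII+CD11c- IC replicate 1 or 2 was left out (adjusted p up to 0.114). Folr2, a folate receptor, Aqp1, a water channel, Kank2, an adhesion adaptor, and F11r, a junction protein, were higher by 0.99 to 1.32. None of the 4 was called with 1 surrogate variable, and Aqp1 and F11r were not called without both shallow MHCII+CD11c- IC libraries (edgeR adjusted p = 0.239 and 0.159). Axl and Mertk, receptors for dying cells, were not called (edgeR adjusted p = 0.44 and 0.111), nor was Cd163 at −0.37 ± 0.28. Without both shallow MHCII+CD11c- IC libraries 6 of the 20 lining genes were called. Of 14 junction and polarity genes, 4 were called higher (28.6%, against 9.77% of all genes tested called), and 1 or 2 when any of the 6 libraries was left out.

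Uptake receptors and lysosomal genes lay on the same side. Of 26 uptake receptors tested, 7 were higher and 1 lower, with a median of 0.48. Itgb5, an integrin beta chain of the receptor for apoptotic cells, stood at 1071, 959 and 906 CPM against 319, 215 and 455 CPM (1.53 ± 0.24, edgeR adjusted p = 0.000103). Stab1, a scavenger receptor, was higher by 1.03 ± 0.26. Timd4, which binds phosphatidylserine, was higher by 1.26 ± 0.32, though it was not called without MHCII+CD11c- IC replicate 1 (edgeR adjusted p = 0.0607). Without both shallow MHCII+CD11c- IC libraries Stab1 was higher by 0.92 and Timd4 by 0.85. Without LYVE1+CX3CR1+ IC replicate 1, 4 uptake receptors were called higher.

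Of 70 lysosomal genes 19 were higher and 3 lower, with a median of 0.47 and 59 genes above 0. Ctsd, the protease cathepsin D, stood at 4606, 4529 and 4421 CPM against 1911, 1227 and 2295 CPM (1.31 ± 0.21, edgeR adjusted p = 0.0001). Gm2a, a lipid-binding activator protein, went the other way at 102, 101 and 141 CPM against 348, 203 and 306 CPM (−1.33 ± 0.20, edgeR adjusted p = 3.84e-05). The count of higher lysosomal genes was 9 without LYVE1+CX3CR1+ IC replicate 1, 5 without both shallow MHCII+CD11c- IC libraries, and otherwise 13 to 27 with 1 library left out.

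Complement genes divided. Of 20 tested, 6 were higher and 7 lower, with a median of 0.00 (−0.12 with floor genes at their bound). The higher genes included C1qa, C1qb and C1qc, the chains of the recognition molecule, the receptor C3ar1 and Vsig4. C1qb was lost without LYVE1+CX3CR1+ IC replicate 1 or 2 (adjusted p up to 0.0757) and C3ar1 without replicate 1 of either subset (up to 0.0774). C1qc stood at 3516, 3406 and 2876 CPM against 1977, 1612 and 2039 CPM (0.80 ± 0.14, edgeR adjusted p = 0.000355). The lower genes included Cfp (properdin) and Cfb (factor B) of the alternative pathway, and the central component C3. Cfp stood at 29.3, 33.7 and 48.5 CPM against 424, 211 and 315 CPM (−3.09 ± 0.27, edgeR adjusted p = 9.7e-09). For C3 the MHCII+CD11c- IC values of 214, 11.3 and 282 CPM were uneven, and 11.3 CPM in replicate 2 is the floor of 3 counts. All lay above the 2.11 to 9.59 CPM of the LYVE1+CX3CR1+ IC libraries, in replicate 2 only by this floor value.

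Genes associated with IL-4 and the C-type lectins were mostly lower. Of 28 IL-4-associated genes tested, 16 were lower and none higher after IC, at a median of −3.11 (−2.06 with floor genes at their bound), and 14 of the 16 were also lower without treatment. Retnla, a secreted product of alternatively activated macrophages, stood at 26.5, 50.1 and 106 CPM against 1132, 753 and 2087 CPM (−4.45 ± 0.44, edgeR adjusted p = 6.86e-08), and at −4.42 ± 0.43 without treatment. Of 22 C-type lectins 14 were lower and 1, Colec12, was higher, which was lost without LYVE1+CX3CR1+ IC replicate 1 or 3 or MHCII+CD11c- IC replicate 1 or 2 (adjusted p up to 0.0651). Among the lower ones stood Mgl2 at 3.95, 4.74 and 15.4 CPM against 275, 211 and 265 CPM (−4.92 ± 0.31). Clec10a and Cd209f, both carbohydrate receptors, were lower at log2 fold changes of −4.66 ± 0.35 and −3.90 ± 0.32. Cd209a and Cd209b were at or under 3 counts in every LYVE1+CX3CR1+ IC library, at least 13.9-fold and 24.1-fold lower, and reads of the near-identical Cd209 genes may have been split between them. Mrc1, the mannose receptor, was not called after IC at −0.15 ± 0.17 (edgeR adjusted p = 0.653).

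Monocyte genes were mostly lower. Of 33 tested, 16 were lower and 4 higher, with a median of −1.22. Ccr2, the receptor that draws monocytes out of the marrow, stood at 15.2, 32.7 and 24 CPM against 366, 606 and 207 CPM (−3.97 ± 0.30, edgeR adjusted p = 4.88e-10). Plac8 stood at 6.2, 0 and 5.28 CPM against 94.1, 316 and 91.1 CPM. Vcan, Lyz2 (lysozyme), S100a4 and Crip1 were higher. Lyz2 was higher by 0.66 and S100a4 by 0.69, and by 0.40 and 0.59 without both shallow MHCII+CD11c- IC libraries. Neutrophil, B cell and mast cell marker sums were higher in the same MHCII+CD11c- libraries, and their part in the lower monocyte, lectin and lymphoid genes was not tested.

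Chemokine receptors that differed were mostly lower. Of 18 tested, 8 were lower and 3 higher, and the median of −1.50 became −0.43 with floor genes at their bound. Ccr7, the lymph node homing receptor, and Cxcr5, the receptor for Cxcl13, had no count in LYVE1+CX3CR1+ IC libraries and stood at 39.2, 45.2 and 65.1 CPM and at 18.3, 60.2 and 40.1 CPM in MHCII+CD11c- cells. The higher genes included Cx3cr1 and S1pr1, with S1pr1 at 213, 236 and 232 CPM against 102, 147 and 134 CPM (0.83 ± 0.19, edgeR adjusted p = 0.00499).

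Chemokine ligands were lower in LYVE1+CX3CR1+ cells for 10 of 21 tested and higher for none, with a median of −1.24 (−1.15 with floor genes at their bound). Cxcl13, the ligand that guides B cells into follicles, had 0 counts in the 6 untreated libraries of both subsets. After IC it stood at 31.4, 52.7 and 49.1 CPM in MHCII+CD11c- cells and at 0, 0 and 0.48 CPM in LYVE1+CX3CR1+ cells, at least 28.2-fold lower (edgeR adjusted p = 1.3e-05). Its interaction could not be estimated, since both untreated groups were at 0. Ccl8 was at the floor in LYVE1+CX3CR1+ IC libraries, at least 21.2-fold lower, and Cxcl10, an interferon-induced ligand, was lower at −4.04 ± 0.65. Ccl2, the ligand of Ccr2, stood at 77.8, 50.1 and 85 CPM against 241, 102 and 156 CPM (−1.24 ± 0.29, edgeR adjusted p = 0.0054), and this call was lost without MHCII+CD11c- IC replicate 1 (adjusted p = 0.061). The neutrophil attractants Cxcl1 and Cxcl2 were not called, at −0.29 ± 0.45 and −0.41 ± 0.21.

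The Fc receptors, the class that binds immune complexes, were lower in LYVE1+CX3CR1+ cells in 5 cases and higher in 1. Of 10 tested, Fcgrt was higher, and Fcmr, Fcer2a, Fcgr4, Fcrls and Fcgr1 were lower. Fcgrt, the neonatal receptor that recycles IgG, stood at 1278, 1159 and 888 CPM against 528, 565 and 489 CPM (1.08 ± 0.18, edgeR adjusted p = 0.000144). Fcgr4, an activating receptor, stood at 3.95, 4.22 and 1.92 CPM against 36.6, 22.6 and 24 CPM (−3.02 ± 0.59, edgeR adjusted p = 0.00112). Fcmr, the IgM receptor, had no count in LYVE1+CX3CR1+ IC libraries and, like Fcer2a, is known from B cells, whose markers were high in the MHCII+CD11c- libraries.

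Fcgr1, the high-affinity activating receptor, stood at 119, 134 and 99.4 CPM against 193, 245 and 133 CPM, and the lowest MHCII+CD11c- value lay below the highest LYVE1+CX3CR1+ value. It was called at −0.65 ± 0.21 (edgeR adjusted p = 0.0481), and without replicate 1, 2 or 3 of LYVE1+CX3CR1+ IC or replicate 1 or 2 of MHCII+CD11c- IC it was not (adjusted p up to 0.206). Fcgr2b, the inhibitory receptor, was lower in LYVE1+CX3CR1+ cells without treatment, at 290, 250 and 228 CPM against 388, 361 and 459 CPM (−0.66 ± 0.16, edgeR adjusted p = 0.00752). After IC it stood at 578, 547 and 469 CPM against 557, 407 and 569 CPM, the groups overlapped, and the difference was 0.05 ± 0.16 (edgeR adjusted p = 0.911). The interaction of 0.70 ± 0.23 had an unadjusted p of 0.00521 and did not pass (edgeR adjusted p = 0.614). Fcgr3 and Fcer1g, an activating receptor and its signalling chain, were not called, at 0.03 ± 0.15 and 0.20 ± 0.15.

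Inflammatory genes were lower where they differed. Of 33 acute inflammation genes tested, 8 were lower and none higher (24.2% called, against 9.77% of all genes tested), with a median of −0.50. Il1b, the cytokine interleukin 1β, stood at 120, 42.7 and 87.4 CPM against 612, 230 and 545 CPM (−2.50 ± 0.34, edgeR adjusted p = 1.48e-05), and the size without treatment was −2.43 ± 0.38. Il1rn, its antagonist, was lower at −2.06 ± 0.31, Ptgs2, the inducible prostaglandin synthase, at −2.41 ± 0.45 and Nlrp3, an inflammasome sensor, at −1.23 ± 0.24. Tnf was not called, at 329, 210 and 252 CPM against 201, 117 and 296 CPM (0.30 ± 0.26, edgeR adjusted p = 0.537). Il1b, Ptgs2 and Il1r2 are also known from neutrophils, whose marker sum was higher in every MHCII+CD11c- IC library, and the part of this in their difference was not tested.

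The interferon response genes that differed were all lower. Of 49 genes tested 24 were lower and none higher after IC, with a median of −1.02 and 47 below 0, while 17 were lower without treatment at a median of −0.85. Irf7, the regulator of the response, stood at 32.7, 63.3 and 36.5 CPM against 214, 136 and 130 CPM (−1.84 ± 0.31, edgeR adjusted p = 0.000223). Mx1, an antiviral GTPase, stood at 3.95, 1.05 and 7.2 CPM against 47.1, 41.4 and 32 CPM (−3.23 ± 0.51), and without treatment at 4.72, 3.13 and 5.92 CPM against 9.3, 4.89 and 7.15 CPM. Rsad2, known as viperin, was at −1.86 ± 0.37 after IC and at 0.03 ± 0.40 without treatment. The interaction p was 0.00194 for Mx1 and 0.00195 for Rsad2 before adjustment, and neither passed (edgeR adjusted p = 0.541 for both). Without both shallow MHCII+CD11c- IC libraries 16 of the list were lower. Of 29 Toll-like receptor genes, 4 were lower and 1 higher (17.2% called, against 9.77% of all genes tested). The lower ones were led by the DNA sensor Tlr9 (−3.77 ± 0.39, edgeR adjusted p = 2.26e-07). Tlr2 was the higher one, a call lost without LYVE1+CX3CR1+ IC replicate 1 or MHCII+CD11c- IC replicate 2 (adjusted p up to 0.105).

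**Figure D4:**
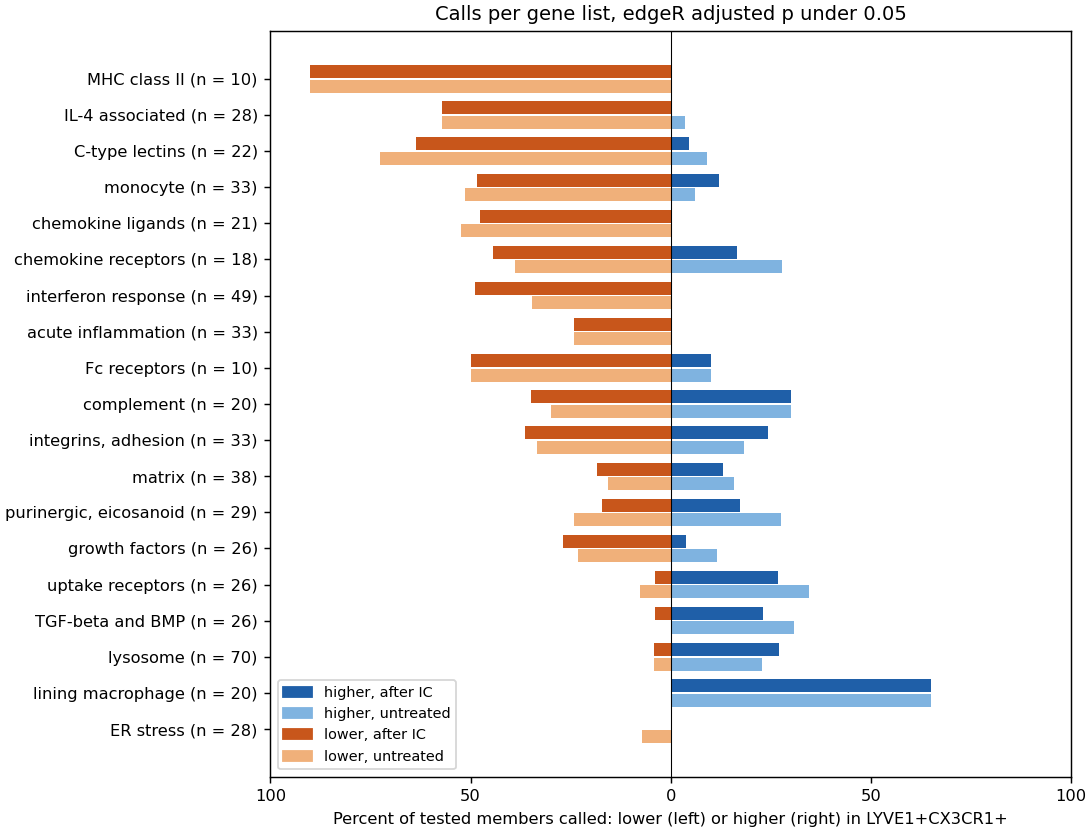
Percent of the tested members of each gene list called lower (left) or higher (right) in LYVE1+CX3CR1+ cells, after IC (dark) and untreated (light); n is the number of members tested. Class II, IL-4-associated, lectin and interferon lists extend to the left, and lining macrophage genes to the right at 13 of 20 in both comparisons.

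Matrix genes went both ways. Of 38 tested, 5 were higher and 7 lower. The median of 0.54 became 0.08 with floor genes at their bound. Mmp19, a metalloproteinase of macrophages, stood at 19.7, 19.5 and 15.4 CPM against 144, 109 and 76.1 CPM (−2.54 ± 0.33, edgeR adjusted p = 6.82e-06), and Mmp9 and Mmp8, known from neutrophils, were lower at −4.99 ± 0.58 and −4.32 ± 0.82. With LYVE1+CX3CR1+ IC replicate 2 or 3 left out 3 matrix genes were higher, and without MHCII+CD11c- IC replicate 3 there were 9.

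The genes with the largest positive log2 fold change between the subsets after IC were led by Thbs2 and included Serpinh1. Thbs2, an angiogenesis inhibitor of the matrix, stood at 23.1, 24.8 and 23 CPM against 2.61, 0 and 2 CPM, at least 3.2-fold higher (edgeR adjusted p = 0.00139). Serpinh1, the collagen chaperone, stood at 289, 305 and 221 CPM against 34, 102 and 73.1 CPM (1.99 ± 0.38, edgeR adjusted p = 0.000772). Prkcdbp, which encodes a caveolar protein, Cald1, an actin binder, Fblim1 of adhesion sites and Coro2b were higher by 2.06 to 2.78. Groups that do not overlap were a condition of this ranking, and 25.1% of all genes tested met it. In both shallow MHCII+CD11c- IC libraries each of these genes was at or under 3 counts. Without those libraries Prkcdbp was higher by 2.49, Cald1 by 1.46, Fblim1 by 1.72 and Coro2b by 1.55. The calcium channel gene Cacna1a was higher by 2.15 ± 0.46. Tanc1, Cdk5r1, Slmo1, Gpatch11, Katnal1, Myo10 and Gja1, also among the 15 largest, were each lost when 1 or more of the 6 libraries was left out (adjusted p up to 0.164). Fibroblast marker sums overlapped between the groups, and the part of other cells in these genes was not tested.

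Among the 15 genes with the most negative log2 fold change between the subsets after IC, those not yet described were Mucl1, Plbd1, Camp, Cd79a, Cd79b, Ear2 and Ear12. Plbd1, a phospholipase of granules, stood at 146, 86.6 and 109 CPM in MHCII+CD11c- cells and was at least 72.6-fold lower in LYVE1+CX3CR1+ cells. Ear2 and Ear12 belong to a ribonuclease family with near-identical copies, and stood in MHCII+CD11c- cells at 60.1, 45.2 and 73.1 CPM and at 57.5, 45.2 and 73.1 CPM. Both are uncertain, since reads of such copies may be counted for either. Camp is a granule protein of neutrophils, and Cd79a and Cd79b belong to the B cell receptor.

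Adhesion genes had 8 higher and 12 lower of 33 tested, with a median of −0.22. The lower genes included Cd226, Vcam1 and Itgal, the alpha chain of LFA-1 (−3.52 ± 0.55, edgeR adjusted p = 8.26e-05). The higher ones were led by Itgb5, and beside it only Itga5, Itgb2, Cd9, Itgav, Nrp1, Itgb1 and Plxnb2 were called, which fell to 3 without any 1 of the LYVE1+CX3CR1+ IC libraries. Of 26 TGF-beta and BMP genes, 6 were higher and 1 lower, with Smad1, a mediator of BMP signals, at 47.9, 41.1 and 36.5 CPM against 5.23, 15.1 and 12 CPM (1.95 ± 0.36, edgeR adjusted p = 0.000648). That count was 3 without LYVE1+CX3CR1+ IC replicate 1 or without MHCII+CD11c- IC replicate 3, and 2 without LYVE1+CX3CR1+ IC replicate 3.

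Lipid mediators and lipid handling separated by gene. Of 29 purinergic and eicosanoid genes, 5 were higher and 5 lower, with a median of 0.31 (0.00 with floor genes at their bound). Ltc4s, the synthase of leukotriene C4, stood at 139, 113 and 108 CPM against 28.8, 7.53 and 60.1 CPM (1.63 ± 0.36, edgeR adjusted p = 0.00311), and Hpgds, a prostaglandin D synthase, was higher by 1.74 ± 0.40. Both stood at 7.53 CPM in MHCII+CD11c- IC replicate 2, under its floor of 11.3 CPM. Without both shallow MHCII+CD11c- IC libraries Ltc4s was higher by 0.99 and Hpgds by 1.36. Hdc, which makes histamine, was lower at −5.36 ± 0.71, in libraries whose mast cell marker sum was also higher. Of 34 lipid-handling genes 5 were lower and 3 higher (23.5% called, against 9.77% of all genes tested). The lower ones included Scd1, a fatty acid desaturase (−5.12 ± 0.42, edgeR adjusted p = 2.42e-09). The higher ones were led in level by Pltp, the phospholipid transfer protein, at 2804, 2611 and 2282 CPM against 1514, 580 and 1489 CPM. Of the lipid genes 1 was called higher without LYVE1+CX3CR1+ IC replicate 1 or 2 or without MHCII+CD11c- IC replicate 1.

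Of 65 transcription factors, 6 were lower and 3 higher, with a median of −0.06. The share called was 13.8%, near the 9.77% of all genes tested. Maf, a factor of resident macrophages, stood at 388, 357 and 360 CPM against 230, 136 and 226 CPM (0.87 ± 0.18, edgeR adjusted p = 0.00161), while Batf3 and Runx3 were lower. Without MHCII+CD11c- IC replicate 2, 12 factors were lower, and without LYVE1+CX3CR1+ IC replicate 1 or 3 or MHCII+CD11c- IC replicate 1 1 factor was higher. Of 26 growth factor and receptor genes, 7 were lower and 1 higher (30.8% called). Ednrb, the endothelin B receptor, stood at 58.6, 42.2 and 38.4 CPM against 201, 320 and 207 CPM (−2.36 ± 0.28, edgeR adjusted p = 1.46e-06), compared with −0.93 ± 0.26 without treatment. Vegfa was lower at −3.74 ± 0.78. Csf1r, the receptor for the growth factor of macrophages, was higher at 0.74 ± 0.23 (edgeR adjusted p = 0.0364) and lost its call without any 1 of the LYVE1+CX3CR1+ IC libraries (adjusted p up to 0.0875).

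Receptors for nerve signals were sparse. Of 32 listed genes 9 were tested, and 11.1% were called, against 9.77% of all genes tested. Calcrl, the receptor chain for the peptide CGRP, was the one called. It stood at 121, 87.5 and 102 CPM against 60.1, 67.8 and 38.1 CPM (0.99 ± 0.30, edgeR adjusted p = 0.0336) and was not called without LYVE1+CX3CR1+ IC replicate 1 or 3 or MHCII+CD11c- IC replicate 3 (adjusted p up to 0.194). Ramp1, its partner chain, stood at 0, 3.16 and 2.4 CPM against 0, 22.6 and 8.01 CPM after IC, was not called (edgeR adjusted p = 0.091), and was lower without treatment at −3.35 ± 0.61.

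Lists of general cell programmes were called at 0 to 13.2%, against 9.77% of all genes tested. Of 38 cell cycle genes, 5 were lower and none higher (13.2%), at a median of −1.04, and the count ran from 2 without LYVE1+CX3CR1+ IC replicate 1 or MHCII+CD11c- IC replicate 1 to 11 without LYVE1+CX3CR1+ IC replicate 3. None of 28 ER stress genes was called by edgeR after IC, with 3 at an unadjusted p under 0.05 and 0 called by DESeq2. Of 16 clock genes, Per1 was lower and Bhlhe40 higher (12.5%), the latter not when any 1 of the 6 libraries was left out (adjusted p up to 0.123). Of 25 genes of the response to tissue dissociation, Hsp90aa1 and Btg2 were lower (8%), and the list summed to between 29181 and 38782 CPM in LYVE1+CX3CR1+ IC and between 25958 and 37041 CPM in MHCII+CD11c- IC libraries.

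Genes called after IC only were led, beside Thbs2, by Cdk5r1, Slmo1, Fblim1 and Gpatch11 among those higher and by Cxcl13, Slfn4, Tpsb2, Cma1 and Thbs1 among those lower. Slfn4, an interferon-induced gene of myeloid cells, stood at 47.1, 102 and 71.1 CPM in MHCII+CD11c- IC libraries and at 0, 2.11 and 0.48 CPM in LYVE1+CX3CR1+ IC libraries, against 2.33 to 4.89 CPM and 0 to 1.62 CPM without treatment. Thbs1, a matrix protein that platelets and monocytes release, stood at 481, 200 and 858 CPM against 0.564, 25.8 and 43.2 CPM. Tpsb2 and Cma1 encode proteases of mast cells, and Cma1 was lost without LYVE1+CX3CR1+ IC replicate 1 or 2 (adjusted p up to 0.0629). The interaction of Slfn4 was −3.90 (unadjusted p = 0.023, edgeR adjusted p = 0.751).

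Genes called without treatment only, and named by their fold after IC, were Cfhr2, Ctla2a, Uaca, Fbln5 and Pcdhga1 on the higher side and Flt1, Prc1, Top2a, Gstp1 and Cd274 on the lower. Their log2 fold changes after IC, by which they were picked, were 1.49 to 2.20 and −2.05 to −1.54. Of all 593 such genes, 544 had the same sign after IC. Cd274, the checkpoint ligand PD-L1, stood at 1.25 to 1.62 CPM against 13.3 to 15.9 CPM without treatment and at 0, 7.38 and 9.6 CPM against 18.3, 3.77 and 23 CPM after IC. A missed call here is not an equal level.

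Among the 10 genes with the smallest interaction p, Ccl6 kept its direction and lost size. This CC chemokine of myeloid cells stood at 384, 305 and 328 CPM against 1657, 1455 and 1184 CPM without treatment (−2.08 ± 0.21) and at 1307, 1309 and 755 CPM against 1914, 2485 and 1805 CPM after IC (−0.88 ± 0.20, edgeR adjusted p = 0.00499). The interaction did not pass (unadjusted p = 0.000281, edgeR adjusted p = 0.34). Slc9a9, an endosomal ion exchanger, stood at 112, 91.2 and 121 CPM against 31.4, 60.2 and 55.1 CPM after IC (1.13 ± 0.25) and at 173, 115 and 126 CPM against 143, 165 and 168 CPM without treatment.

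Cdc37, a cochaperone of kinases, was called after IC at 0.65 ± 0.18 (edgeR adjusted p = 0.0226), and Gcnt1, a glycosyltransferase, at −0.80 ± 0.25 (edgeR adjusted p = 0.0411). Their values without treatment were of the opposite sign, at −0.41 ± 0.17 for Cdc37 and 0.68 ± 0.25 for Gcnt1, and were not called. Both calls after IC were lost without some libraries, with adjusted p up to 0.0775 for Cdc37 and 0.143 for Gcnt1. Ankrd33b, Ppfibp2 and Agfg1 were called without treatment and not after IC, where each had the opposite sign. Ankrd33b was at 2.35 ± 0.50 without treatment and −0.85 ± 0.42 after IC, and Ppfibp2 at −1.53 ± 0.42 and 1.41 ± 0.55. Agfg1 stood at 84.2, 77.1 and 85.1 CPM against 45.3, 34.2 and 28.6 CPM without treatment and at 91.9, 86.5 and 87.9 CPM against 86.3, 109 and 105 CPM after IC. The adjusted interaction p of the 7 genes named here beside H2-Ab1 and H2-Aa, from edgeR, lay between 0.188 and 0.34.

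**Figure D5:**
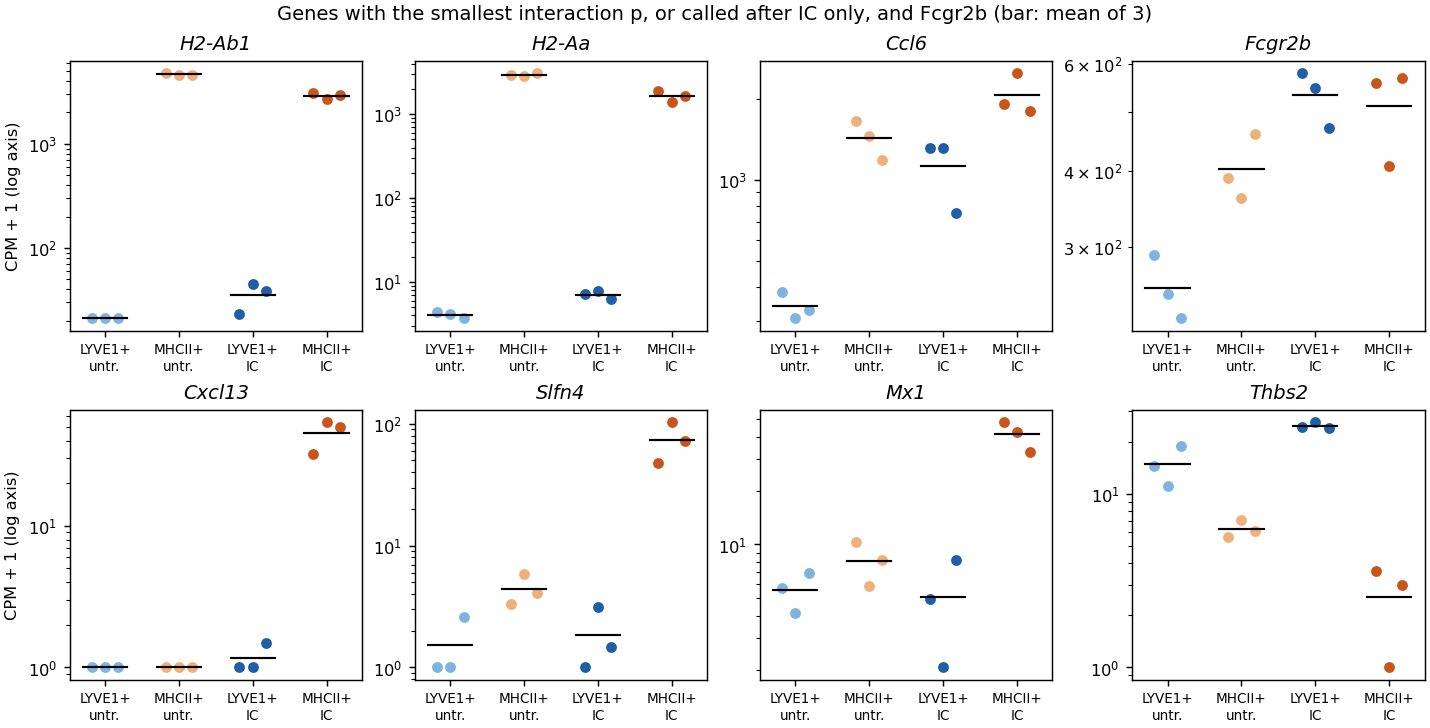
Level of 8 genes in each library as CPM + 1 on a log axis whose range differs between panels, for LYVE1+CX3CR1+ (LYVE1+) and MHCII+CD11c- (MHCII+) cells, untreated (untr.) and after IC; each point is 1 library and the bar is the mean of 3. Fcgr2b separates the subsets without treatment and overlaps after IC, and Cxcl13, Slfn4 and Mx1 are highest in the 3 MHCII+CD11c- IC libraries; no interaction in these 8 passed the threshold.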

How the data were processed

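RNA of sorted cells (5 ng per library) was made into stranded total RNA libraries and sequenced in pairs. After removal of 3 bases from the start of read 1 and trimming with Trim Galore, the authors used HISAT2 and mm10 for alignment and deposited whole-number counts per gene from featureCounts, with no normalization. Versions, annotation, strand setting and the handling of multiply mapped reads are not given in the sources used here, so genes with near-identical or overlapping copies are uncertain. Rn45s, the ribosomal RNA precursor, took 7.92% to 16.3% of the counts of a library. A merged table of the series was not used.

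The 18 libraries in 6 groups were fitted together with edgeR 4.0.16 in R 4.3.3 (TMM, filterByExpr with a minimum count of 10, quasi-likelihood test, Benjamini-Hochberg over the 10550 genes tested of 24421 symbols). No block was used. The contrasts were the subset difference after IC, the same without treatment, and their interaction. DESeq2 1.42.0, sva 3.50.0, other filters, fits to fewer libraries, thinned counts, a replicate block, glmTreat and the omission of single libraries served as alternatives. Means, levels and sums are CPM on TMM-scaled totals. A fold against a group at or under 3 counts in every library was taken against the group's mean floor. The fit was tested on simulated data: of 100 genes changed by a log2 fold of 1 after IC 27 were recovered, and of 100 changed by 2, 72. For the interaction 8 and 49 were recovered. Of 106 genes called in the simulated comparison after IC, 7 had not been changed, and of 65 called for the interaction, 8. Before the change each simulated gene had the same mean in all groups, unlike genes at 0 in a subset.

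Genes are named if they mark the subsets or the sort, belong to 1 of the 40 gene lists (those with few or no tested members are summarised), are among the 15 largest or smallest fold changes after IC with non-overlapping groups and a mean log2 CPM of at least 3, have 1 of the 10 smallest interaction p-values, are among the 5 largest or smallest called in 1 comparison only, or are named by the study. Some genes that meet these rules are not reported here. Members and lists were chosen with earlier results of these data known. Same-numbered libraries of the 2 subsets are not stated to share mice. The study describes each untreated library as 3 mice, the labels name no animals for the IC libraries, and p-values measure the spread between these libraries. No pair of libraries in a group held identical counts, and each pair differed beyond sampling noise (chi-square per gene 3.43 to 7.80).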

Additional observations from a re-analysis of the deposited data

How the results depend on the processing

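The count of genes called after IC (1031) was 664 with at least 10 counts required in every library, 522 in a fit to the 6 libraries compared, 435 with 1 surrogate variable, 563 with counts thinned to the smallest library, 259 when the log2 fold change was tested against 1 with glmTreat, and 633 to 1088 with 1 of the 12 libraries left out. The further checks were chosen after seeing the data: 589 genes were called without MHCII+CD11c- IC replicates 1 and 2 together, and 1036 without Rn45s in the library totals. Without treatment (1207) the count was 750 with the stricter filter, 501 with thinned counts, 274 with glmTreat and 811 to 1488 with 1 library left out. The count called in both (614) was 385 with the stricter filter, 342 with the surrogate variable, 254 with thinned counts, 174 with glmTreat and 445 to 631 with 1 library left out. The interaction (0 genes) gave 12 genes with DESeq2, 20 without a filter on low counts, and 0 to 1 with 1 library left out. The cause of these changes was not tested, except that fewer genes or libraries enter the stricter filter and the smaller fits. The split of calls after IC moved from 350 higher and 681 lower to 355 and 309 with the stricter filter and to 51 and 384 with the surrogate variable.

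Labels share replicate numbers between the subsets but do not state shared mice, so the numbers were not taken as pairs. The deviations of same-numbered IC libraries correlated at 0.0106, 0.0278 and 0.0342, and those of differently numbered ones at -0.0457 to 0.0258. These values cannot decide whether mice were shared, since the ranges overlap and the MHCII+CD11c- IC libraries are shallow. With a replicate block for the pool number 1056 genes were called after IC, 1251 without treatment, 659 in both and 0 in the interaction. A replicate block in the fit to the 6 libraries gave 514.

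Of the 164 named genes tested, 4 changed sign under an alternative, and none of the 4 was called after IC. Fcgr2b (0.05) was at -0.03 with the surrogate variable, -0.15 with thinned counts, -0.02 without LYVE1+CX3CR1+ IC replicate 1, -0.08 without MHCII+CD11c- IC replicate 2, and -0.10 without MHCII+CD11c- IC replicates 1 and 2, and ranged from -0.08 to 0.13 with 1 library left out. Tnf (0.30) was at -0.33 with the surrogate variable and -0.17 without the 2 shallow libraries, Cxcl1 (-0.29) at 0.18 with thinned counts and 0.10 without MHCII+CD11c- IC replicate 3, and Fcgr3 (0.03) at -0.05 without that library. With 1 library left out Cxcl1 ranged from -0.69 to 0.10 and Fcgr3 from -0.05 to 0.08. Across 4015 values of named genes under the alternatives and the main setting, 411 lost the call and 36 gained one. The median of all genes stayed between -0.03 and 0.06. The MHCII+CD11c- IC libraries limit the detection of low genes, since 3 counts in replicate 2 come to 11.3 CPM.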
